A study of Mus musculus with 23 samples.

Results

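MC38 tumors grown in CC079F1 hosts, female F1 mice from a cross of C57BL/6J and the Collaborative Cross strain CC079/TauUncJ, were compared with MC38 tumors grown in CC036F1 (C57BL/6J x CC036/UncJ) and CC080F1 (C57BL/6J x CC080/TauUncJ) hosts. The CC079F1 tumors were chosen by the host in their label and numbered 4 of 23 tumors in the series, and the comparison tumors numbered 7 (4 CC036F1 and 3 CC080F1). The study's text counts all 3 lines as non-responders to antibody against PD-1 (aPD1), so the comparison asks what a host line does to the tumor transcriptome where that class is the same. MC38 is a C57BL/6 colon carcinoma line. In every group the cells were injected under the skin of females 8 to 12 weeks old, 200 µg of aPD1 or of isotype control was given by the intraperitoneal route when tumors measured 75 to 110 mm3, and tumors were taken 48 h later for poly(A) RNA-seq of bulk tissue. CC079F1 and CC036F1 each had 2 isotype and 2 aPD1 tumors, and CC080F1 had 2 isotype tumors and 1 aPD1 tumor. The other 12 tumors came from CC001F1, CC002F1 and CC075F1 hosts, the lines the study calls responders, and their values are given only for reference.

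The Collaborative Cross is a panel of inbred mouse strains that mix the genomes of several founder strains. Each F1 host therefore carries a C57BL/6J copy of every autosomal gene and a copy from its own cross parent, while the injected tumor cells are the same in every host. A transcript that sets a host line apart in such a tumor can come from the host's stroma and immune cells or from tumor cells that differ between hosts. In bulk tissue, fewer cells of a type and less RNA per cell cannot be told apart. All 4 CC079F1 tumors share a host line, so the line and anything else those mice share cannot be told apart either.

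Libraries held 15276128 to 65776443 expected counts per tumor over the 11 tumors, and those of CC079F1 held 37242363 and 18354585 (isotype) and 44238949 and 16765492 (aPD1). CC079F1 aPD1 replicate 1 and CC080F1 aPD1 replicate 1 stood apart in B cell and lymph node transcripts, with summed normalized counts of 2446 and 5229 over the B cell list against 532 to 1165 in the other 9 tumors. The summed counts of the MC38 and epithelial list were 708 to 1169 in CC079F1 and 678 to 1421 in the other lines. These sums overlapped, but the members did not move alike. The list's median log2 difference was 2.44 against CC036F1 and -0.96 against CC080F1. Against CC036F1, Krt18 was higher and Cdh1 lower in CC079F1 (adjusted p under 0.05 in DESeq2).

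Of 18252 genes with an adjusted p, 81 (0.444%) differed between CC079F1 and the other non-responder lines in DESeq2 with antibody as a term, 28 (0.153%) higher and 53 (0.29%) lower in CC079F1 (adjusted p under 0.05). Fitted with each line as its own level, CC079F1 differed from CC036F1 at 1175 of 17412 genes (6.75%). From CC080F1 it differed at 200 of 24552 genes (0.815%). CC080F1 had 3 tumors and CC036F1 had 4, so these counts are not like for like. Genes that passed in all 3 comparisons in the same direction are called CC079F1 genes here, and there were 39 (0.214%), 14 higher and 25 lower. In 30 of the 39 the 4 CC079F1 tumors did not overlap the other 7, against 1.11% of all tested genes. The 39 were picked for their difference in these same tumors, so this lack of overlap is no further evidence for them. edgeR's quasi-likelihood test called 13 genes, all of them among the 81. The number in DESeq2 was 49 without CC079F1 isotype replicate 2, 136 without CC080F1 isotype replicate 2 and 237 without CC080F1 aPD1 replicate 1. That of CC079F1 genes was between 28 and 46 with any 1 tumor left out, but not always the same genes. Of the 39, as few as 23 were kept (without CC080F1 isotype replicate 1), and 25 without CC079F1 isotype replicate 1 or aPD1 replicate 1.

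Many of the CC079F1 genes were close copies of another gene. By annotation, 7 of the 39 were pseudogenes (17.9%, against 5.24% of tested genes). For 15 of the 39 (38.5%) another gene's transcript matched the longest transcript at 95% identity or more over at least 50% of its length, against 7.75% of all tested genes with a transcript. Reads from such copies can be assigned to either gene, so the levels of these genes are uncertain in themselves.

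The sequences below show how little separates 3 of these copies, both on or off genes and Gm4149, from their nearest gene. A processed pseudogene is a copy of an mRNA that was reverse transcribed and inserted elsewhere in the genome. Each line gives 100 bases, 5′ to 3′, from GENCODE transcripts on GRCm38, with the bases that differ between the pseudogene and the coding sequence of the nearest gene in capitals. Rps15-ps2 lies at chr6:58017506-58017943, Gm6969 at chr12:24638669-24639010 and Gm4149 at chr13:75644896-75645171. The annotation places no other gene over Rps15-ps2 or Gm6969, and a microRNA gene, Mir682, over Gm4149.
Rps15-ps2, chr6:58017654-58017753, plus strand: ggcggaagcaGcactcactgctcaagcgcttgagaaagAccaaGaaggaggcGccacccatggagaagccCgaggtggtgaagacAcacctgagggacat
Rps15, the same stretch: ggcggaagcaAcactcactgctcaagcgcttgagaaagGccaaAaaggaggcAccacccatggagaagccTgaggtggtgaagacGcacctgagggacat
Gm6969, chr12:24638692-24638791, minus strand: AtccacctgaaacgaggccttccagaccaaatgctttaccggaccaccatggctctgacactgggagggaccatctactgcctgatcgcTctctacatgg
Cox7a2l, the same stretch: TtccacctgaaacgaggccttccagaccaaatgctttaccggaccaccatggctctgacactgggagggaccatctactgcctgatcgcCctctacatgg
Gm4149, chr13:75645043-75645142, plus strand: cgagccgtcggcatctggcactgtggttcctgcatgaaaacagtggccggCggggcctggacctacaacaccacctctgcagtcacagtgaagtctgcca
Rpl37a, the same stretch: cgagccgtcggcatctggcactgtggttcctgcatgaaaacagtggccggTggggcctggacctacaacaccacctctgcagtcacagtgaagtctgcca

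Over the whole transcripts, Rps15-ps2 differed from Rps15, a protein of the small ribosomal subunit, at 10 of 438 aligned bases. Gm6969 differed from Cox7a2l, a factor of the mitochondrial respiratory chain, at 2 of 336 aligned bases with 1 gap. Gm4149 differed from Rpl37a, a protein of the large ribosomal subunit, at 1 of 276 bases.

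By the rule of under 5 normalized counts in every tumor of one side and at least 20 in every tumor of the other, 2 called genes were on or off with the host line, and both were on in CC079F1. Rps15-ps2 had 278 and 272 normalized counts in the CC079F1 isotype tumors and 320 and 314 in the aPD1 tumors. In the other non-responder lines it was at 0 in 5 of 7 tumors, and the highest value was 1.66. The ratio of summed counts was 685, with a 95% counting interval of 267 to 2518 (exact binomial, which covers counting error only). The 12 tumors of the lines outside the comparison held 0.578 counts at most, so the high level was that of the 4 CC079F1 tumors alone. Rps15 itself did not pass, with means of 23745 in CC079F1, 26112 in CC036F1 and 24385 in CC080F1 (log2 difference -0.09, adjusted p 0.802 in DESeq2).

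Gm6969 had 29.2 and 61.3 normalized counts in the isotype tumors and 54.8 and 49.4 in the aPD1 tumors of CC079F1. It was at 0 in all 7 tumors of the other non-responder lines, so its level in CC079F1 was at least 144-fold higher against a floor of 3 counts over those tumors. Here CC079F1 was not the exception in the series, since all 12 tumors of CC001F1, CC002F1 and CC075F1 lay between 28.4 and 118. Cox7a2l did not pass (log2 difference -0.01, adjusted p 0.99 in DESeq2).

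Gm4149 was not at 0 elsewhere but showed the same step. Its counts were 828.7 and 1013 in the isotype tumors and 1152 and 747 in the aPD1 tumors of CC079F1, against 11.3 to 79.4 in the other 7 tumors and 19 to 91.4 in the 12 outside the comparison. The log2 difference was 4.18 ± 0.41 (SE; adjusted p 1.88e-20 in DESeq2 and 1.05e-05 in edgeR). AK157302, which matched the iron-sulfur cluster gene Isca1 at 98.96% identity, had 15.8 to 35.6 counts in CC079F1 and was at 0 in 6 of the other 7 tumors, with 1.61 in the remaining tumor. Its ratio of summed counts was 75.2 (counting interval 24.9 to 372). CC079F1 was not alone, since the CC075F1 tumors had 19.7 to 63.6 counts of AK157302. Gm1821, a pseudogene close to the ubiquitin gene Ubb, rose by a smaller step, from 166 to 345 counts in the other lines to 433 to 571 in CC079F1 (log2 difference 0.98 ± 0.16, SE, adjusted p 3.34e-06 in DESeq2). The CC075F1 tumors, at 716 to 1363 counts of Gm1821, lay above every CC079F1 tumor.

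The reverse case was Gm7336, a copy of the glycolytic gene Gapdh at chr7:51746647-51747878 that matched it at 99.8% identity over its full length. It had 303 and 244 counts in the isotype tumors and 244 and 198 in the aPD1 tumors of CC079F1. CC036F1 tumors held 10896 to 15028 and CC080F1 tumors 941 to 1695, so CC036F1 stood furthest from the rest. The 12 tumors outside the comparison ranged from 932 to 12507, and CC079F1 was thus the lowest line of the 6. The 12507 was that of CC075F1 isotype replicate 2, while the other CC075F1 tumors held 1364 to 2368. Gapdh levels were close, with means of 79791, 88325 and 70835 in CC079F1, CC036F1 and CC080F1 (adjusted p 0.981 in DESeq2).

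**Figure D1:**
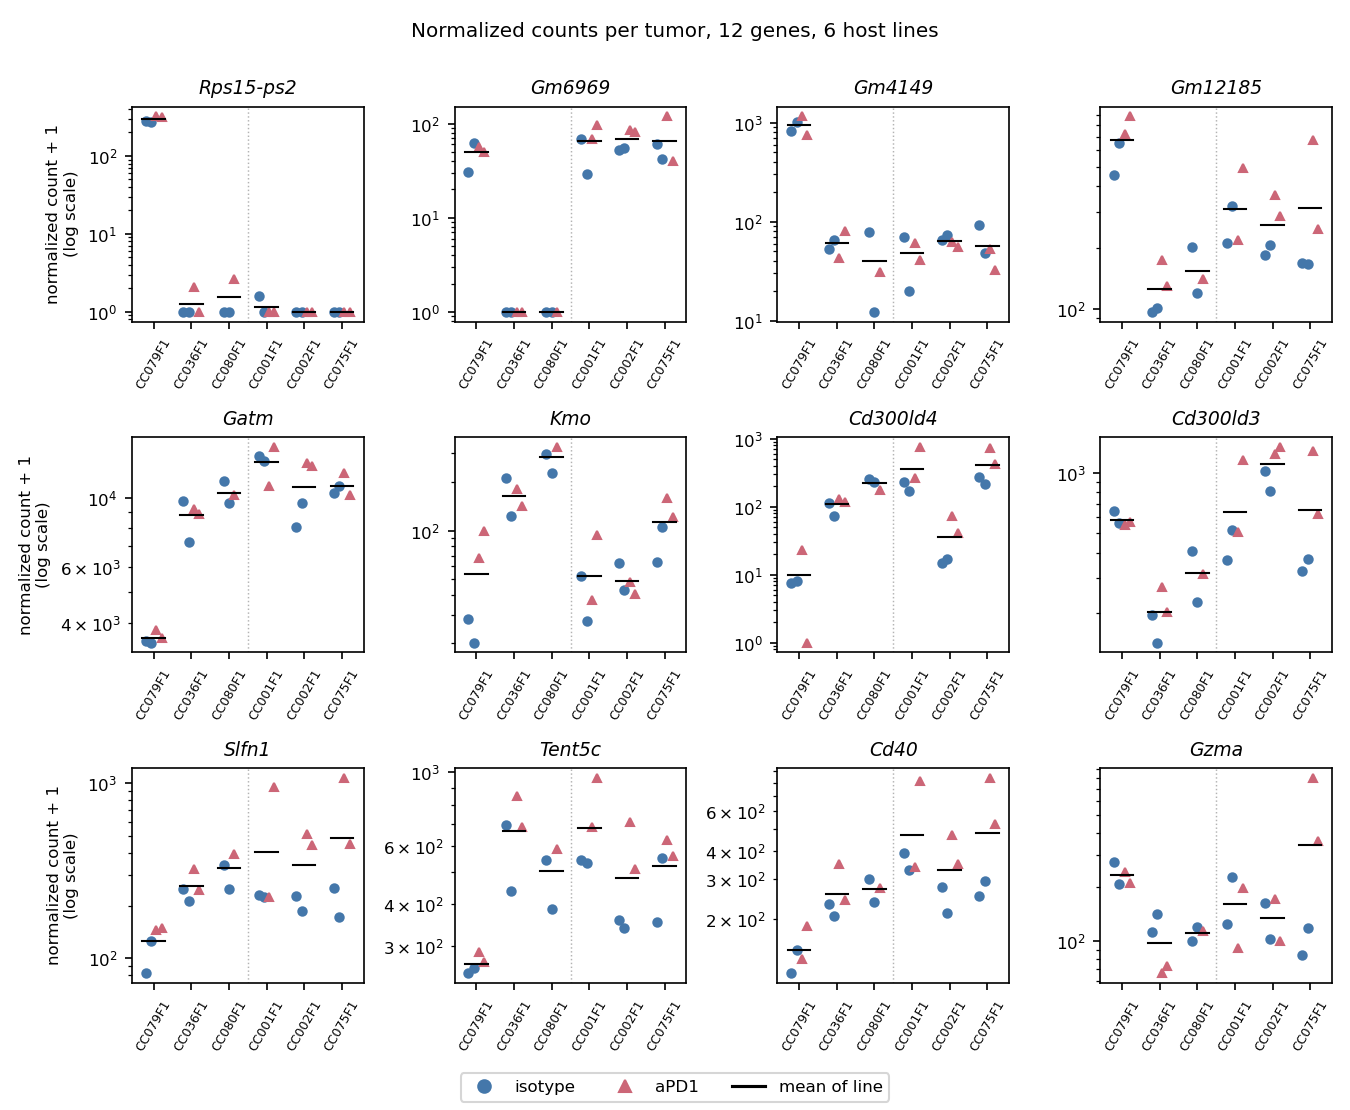
Normalized count plus 1 (y axis, log scale) of 12 genes in each tumor, by host line (x axis; the dotted line parts the 3 non-responder lines, left, from the other 3), with circles for isotype, triangles for aPD1 and bars for the mean of the line. Rps15-ps2 and Gm4149 are high in the 4 CC079F1 tumors alone, Gm6969 is absent from CC036F1 and CC080F1 alone, and Gatm and Tent5c are below all 7 comparison tumors in CC079F1.

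Among genes without a near copy, the enzyme Gatm gave the smallest adjusted p. Gatm makes guanidinoacetate, the precursor of creatine. Its counts were 3497 and 3457 in the isotype tumors and 3785 and 3563 in the aPD1 tumors of CC079F1, against 7238 to 11279 in the other 7 tumors and 8096 to 14512 in the 12 outside the comparison. The log2 difference was -1.41 ± 0.10 (SE; adjusted p 4.34e-39 in DESeq2 and 8.69e-06 in edgeR). The 4 tumors lay close together whichever antibody was given, and below every other tumor of the series.

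Kmo, which turns kynurenine into 3-hydroxykynurenine in tryptophan breakdown, was lower too. It had 27.4 and 19.3 counts with isotype and 66.8 and 98.9 with aPD1 in CC079F1, against 122 to 327 in the other non-responder tumors (log2 difference -2.21 ± 0.36, SE, adjusted p 1.41e-06 in DESeq2 and 0.0862 in edgeR). The lines outside the comparison, at 26.5 to 157, overlapped CC079F1, so the low level was not its alone. Eno2, a glycolytic enolase, was at 79.1 to 140.2 in CC079F1 and 149 to 399 in the other 7 tumors. Its log2 difference was -1.40 (adjusted p 0.101 in edgeR), and -0.89 without CC036F1 (adjusted p 0.0976 in DESeq2).

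Several genes of immune cells were lower in CC079F1. Tent5c, a poly(A) polymerase that stabilizes mRNAs in B lineage cells, was at 247 to 285 counts in CC079F1 and 386 to 845 in the other 7 tumors (log2 difference -1.18 ± 0.17, SE, adjusted p 3.13e-09 in DESeq2). Slfn1, a Schlafen family gene first described in T cells, was at 81.3 to 148 against 212 to 392 (-1.25 ± 0.20, adjusted p 5.52e-07 in DESeq2). Cd40, the costimulatory receptor of antigen-presenting cells, was at 114 to 186 against 206 to 350 (-0.91 ± 0.18, adjusted p 0.000295 in DESeq2). None of these 3 genes overlapped between CC079F1 and the other non-responder tumors. In edgeR, Tent5c (adjusted p 0.0131) and Slfn1 (0.0345) passed and Cd40 did not (0.123).

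The integrin chain Itgam (CD11b) of myeloid cells was at 3325 to 4123 counts in CC079F1 and 4312 to 6253 in the other 7 tumors (log2 difference -0.51 ± 0.10, SE, adjusted p 0.000423 in DESeq2). The lysosomal transporter Slc15a3 was at 826 to 1038 against 1096 to 1540 (-0.52 ± 0.09, adjusted p 1.89e-05 in DESeq2). Both differences were under 2-fold, and neither gene overlapped. In edgeR Slc15a3 passed (adjusted p 0.0345) and Itgam did not (0.0862). Galnt6, an enzyme that starts O-linked glycosylation, and the syndecan Sdc3 completed the lower genes with a mean of at least 100 counts and no overlap. Their log2 differences were -0.81 and -0.37, and neither passed in edgeR (adjusted p 0.0825 and 0.0881).

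A smaller number of coding genes rose. Gzma, granzyme A of cytotoxic lymphocytes, had 273 and 207 counts with isotype and 242 and 210 with aPD1 in CC079F1. The other non-responder tumors had 65.7 to 140 counts (log2 difference 1.24 ± 0.20, SE, adjusted p 1.89e-06 in DESeq2 and 0.0486 in edgeR). Tumors of the lines outside the comparison ran from 83.6 to 805 and enclosed the CC079F1 values. Plxnc1, a semaphorin receptor, was at 589 to 641 against 397 to 472 (0.47 ± 0.09, adjusted p 9.74e-05 in DESeq2 and 0.111 in edgeR). CC075F1 tumors were higher still, at 743 to 965. Npnt, nephronectin of the basement membrane, had a mean under 100 counts and is named after its values were seen. It was at 99.6 to 238 against 1.61 to 34.5 (2.84 ± 0.51, adjusted p 2.53e-05 in DESeq2 and 0.0825 in edgeR), and reached 40.5 at most in the 12 tumors outside the comparison. Rpl17, of the large ribosomal subunit, was 0.67 higher, and CC075F1 tumors, at 1325 to 1620 counts, overlapped CC079F1. The call was lost without CC079F1 isotype replicate 1 (0.62, adjusted p 0.097) or aPD1 replicate 1 (0.61, adjusted p 0.0996 in DESeq2). Rpl17-ps8 matched Rpl17 at 99.7% identity over 620 bases (46.8% of its longest transcript). That copy held a mean of 17480 counts in CC079F1, against 1420 for Rpl17.

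**Figure D2:**
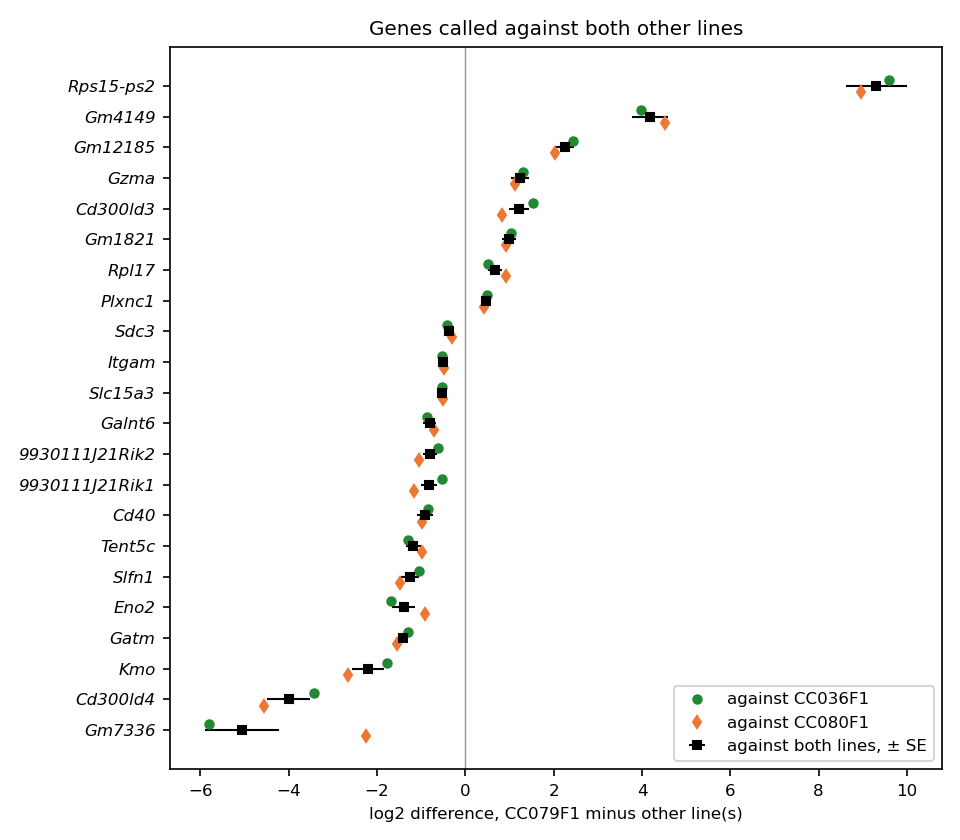
Log2 difference (x axis) of the 22 CC079F1 genes (y axis) with a mean of at least 100 normalized counts and no overlap with the other 7 tumors. Squares with bars show CC079F1 minus both lines ± SE, circles CC079F1 minus CC036F1 and diamonds CC079F1 minus CC080F1. All 3 symbols of a gene lie on the same side of 0, and they lie furthest apart for Gm7336 (-5.80 against CC036F1 and -2.25 against CC080F1).

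The CC079F1 genes outside that rule, named after their values were seen, had lower counts or overlapped. Besides Npnt, the higher ones were Gdf3, a growth factor of the TGF-beta family, at 148 to 384 counts against 25.9 to 172, and Gdpd3, Dynlt1b, AK157302 and Gm6969. Lower ones included the endosomal protease Ctse (7.91 to 27.0 against 27.9 to 266), the transglutaminase Tgm2, the BCL2 family gene Bcl2a1b, Sectm1a, Cd300ld and the glucuronosyltransferase Ugt1a6b. Ugt1a6b was at 0 in 3 of 4 CC079F1 tumors and at 22.4 to 82.5 in the other 7, and it overlaps the other Ugt1a genes in the annotation. BC018473, listed as antisense, was at 0 to 3.95 in CC079F1 and 17.2 to 164 in the other 7 tumors (log2 difference -5.46 ± 0.87, SE, adjusted p 5.88e-07 in DESeq2). It was as low in CC002F1, at 0 to 2.08, where Ctse was low too, at 21.01 to 30.5. Gdf3 reached 427 and Ugt1a6b 0 to 32.3 counts in the lines outside the comparison. The others were Gm27232, Gm1980, Gm8979 and Gm44860. Tgm2 was at 1211 to 2705 against 2055 to 5749 (adjusted p 0.0251 in DESeq2), and lost its call without CC079F1 isotype replicate 1 (adjusted p 0.309), isotype replicate 2 (0.351) or aPD1 replicate 1 (0.196), CC036F1 aPD1 replicate 2 (0.0817) or CC080F1 isotype replicate 2 (0.0534). Ctse lost its call without CC079F1 isotype replicate 2 (adjusted p 0.118), and Gdpd3 without that tumor (0.115) or CC079F1 aPD1 replicate 1 (0.0597). Gm1980 lost it without CC079F1 isotype replicate 1 (0.0785) or aPD1 replicate 1 (0.0771). Gm44860 lost it without CC036F1 aPD1 replicate 1 (0.0621) or CC079F1 isotype replicate 1 (0.122), isotype replicate 2 (0.0981) or aPD1 replicate 2 (0.0836).

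CC079F1 genes lay next to each other in 2 places, both on chromosome 11, which also had the highest share of genes called of any chromosome (17 of 1379, 1.23%). Neighbors were joined where their starts lay within 500000 bases of each other, and 3 or more genes made a block. The cause of the neighborhood was not tested, and near copies within a block share reads.

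The first block spans chr11:48904656-49051242 and lies among genes for interferon-inducible GTPases, proteins that attack the vacuoles of intracellular microbes in mouse cells. Of 6 tested genes 3 were CC079F1 genes, and they moved in different directions. Gm12185 had 455 and 652 counts with isotype and 726 and 880 with aPD1 in CC079F1, against 95.9 to 199.7 in the other 7 tumors (log2 difference 2.25 ± 0.21, SE, adjusted p 1.84e-23 in DESeq2 and 7.83e-05 in edgeR). The 12 tumors outside the comparison had 165 to 677 counts of Gm12185 and overlapped CC079F1. The neighbor 9930111J21Rik2 had 956 to 1167 counts in CC079F1 and 1275 to 2396 in the other 7 (-0.81 ± 0.16, adjusted p 0.000154 in DESeq2). The third, 9930111J21Rik1, had 236 to 286 against 339 to 607 (-0.82 ± 0.18, adjusted p 0.00252 in DESeq2, and 0.0875 without CC079F1 isotype replicate 1). In edgeR neither 9930111J21Rik2 (adjusted p 0.0862) nor 9930111J21Rik1 (0.189) passed. Tgtp1, the T cell specific GTPase that lies within the block, did not pass (-0.58, adjusted p 0.841 in DESeq2), nor did Psme2b or Olfr56.

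The genes 9930111J21Rik1 and 9930111J21Rik2 matched at 98.98% identity over 3221 bases. In the annotation Gm12185 overlaps 9930111J21Rik1, Psme2b and Tgtp1 on the same strand, and reads in the overlap can be assigned to either. The promoters below, 250 bases before to 50 after the start (RefSeq, GRCm38.p6), are shown because the block is next to interferon response genes. Capitals mark GAAA followed by 2 bases of any kind and a further GAAA, the core of an interferon-stimulated response element (ISRE), searched on both strands.
Gm12185, chr11:48927133-48927432, minus strand: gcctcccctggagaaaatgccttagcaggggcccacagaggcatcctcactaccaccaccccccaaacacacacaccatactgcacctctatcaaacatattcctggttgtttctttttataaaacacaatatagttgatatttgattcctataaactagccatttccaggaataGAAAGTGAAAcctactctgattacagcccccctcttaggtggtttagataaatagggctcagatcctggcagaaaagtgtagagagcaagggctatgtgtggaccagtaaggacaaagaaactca
9930111J21Rik1, chr11:48979332-48979631, minus strand: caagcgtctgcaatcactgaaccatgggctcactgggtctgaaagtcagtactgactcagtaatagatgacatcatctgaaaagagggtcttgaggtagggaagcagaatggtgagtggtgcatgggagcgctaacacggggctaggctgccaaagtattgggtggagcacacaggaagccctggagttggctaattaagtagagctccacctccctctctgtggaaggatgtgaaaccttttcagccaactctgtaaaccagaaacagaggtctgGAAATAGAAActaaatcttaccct

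The ISRE core is in 3.44% of the 32851 promoters of the RefSeq table. In Gm12185 it starts 75 bases before the RefSeq start used here. Next to it, 86 bases before that start, lies TTCNNNGAA, the core of an interferon-gamma activated site, which is in 8.3% of promoters. The RefSeq start lies inside the GENCODE span of Gm12185 (chr11:48904656-48992226, minus strand), which reaches further upstream. The overlaps with other genes named above are those of this longer span. In 9930111J21Rik1 the ISRE core starts at base 27 of the gene. The promoter window of 9930111J21Rik2 repeats that of 9930111J21Rik1 without a difference over 283 bases but is shifted by 17 bases, and its window ends within the site. A match is a description of these letters in the reference, and the CC079 parent's own sequence was not used here.

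The other block spans chr11:114982274-115048409 and holds the Cd300ld genes, a family of immunoglobulin-like receptors of myeloid cells. Cd300ld4 had 6.4 and 7.01 counts with isotype and 21.8 and 0 with aPD1 in CC079F1, against 70.5 to 256 in the other 7 tumors (log2 difference -4.00 ± 0.49, SE, adjusted p 1.56e-12 in DESeq2 and 0.0285 in edgeR). Cd300ld3 went the other way, with 647 and 563 counts with isotype and 548 and 567 with aPD1 against 141 to 409 (1.21 ± 0.23, adjusted p 0.000184 in DESeq2 and 0.0881 in edgeR). The lines outside the comparison, at 322 to 1345 counts of Cd300ld3, enclosed the CC079F1 values. Cd300ld was at 117 to 204 against 199 to 490 (-1.01 ± 0.24, adjusted p 0.00921 in DESeq2 and 0.306 in edgeR). Its DESeq2 call was lost without CC079F1 isotype replicate 2 (adjusted p 0.141), aPD1 replicate 1 (0.0613) or aPD1 replicate 2 (0.0892). The Cd300ld block lost its 3 genes in 8 of the 11 fits that left out 1 tumor, namely each CC079F1 tumor, each CC080F1 tumor or CC036F1 aPD1 replicate 2. The block with Gm12185 was lost without CC079F1 isotype replicate 1 only. Cd300c2 did not pass (log2 difference 0.56, adjusted p 0.283 in DESeq2), nor did Cd300ld5 (-2.26, adjusted p 0.68).

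Cd300ld4 is also low in CC002F1, at a mean of 34.96 counts, against 352 in CC001F1 and 407 in CC075F1. Its transcript differs from that of Cd300ld5 at 1 of 852 bases and from that of Cd300ld3 at 10 of 852, so counts within this family depend on a few bases. Cd300ld5 itself was low in both CC079F1 and CC036F1, with means of 5.48 and 5.78 counts, and was at 43.0 in CC080F1. The promoters of the 2 oppositely moving genes are shown with their 15 differing bases in capitals (95% identity over 300 bases, RefSeq, GRCm38.p6). Neither holds the ISRE core or TTCNNNGAA.
Cd300ld3, chr11:115048281-115048580, minus strand: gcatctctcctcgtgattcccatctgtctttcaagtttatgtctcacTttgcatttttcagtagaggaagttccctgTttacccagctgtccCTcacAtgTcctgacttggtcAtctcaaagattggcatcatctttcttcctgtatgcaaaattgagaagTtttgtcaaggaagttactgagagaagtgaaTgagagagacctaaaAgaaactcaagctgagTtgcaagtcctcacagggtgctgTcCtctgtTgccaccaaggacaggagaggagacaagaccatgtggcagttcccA
Cd300ld4, chr11:115026884-115027183, minus strand: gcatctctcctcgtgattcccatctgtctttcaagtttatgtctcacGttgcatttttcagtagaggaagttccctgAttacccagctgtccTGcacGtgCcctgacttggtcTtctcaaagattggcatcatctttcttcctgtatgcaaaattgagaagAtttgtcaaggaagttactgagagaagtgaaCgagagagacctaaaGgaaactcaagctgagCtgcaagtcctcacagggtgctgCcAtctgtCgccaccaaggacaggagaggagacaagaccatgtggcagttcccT

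**Figure D3:**
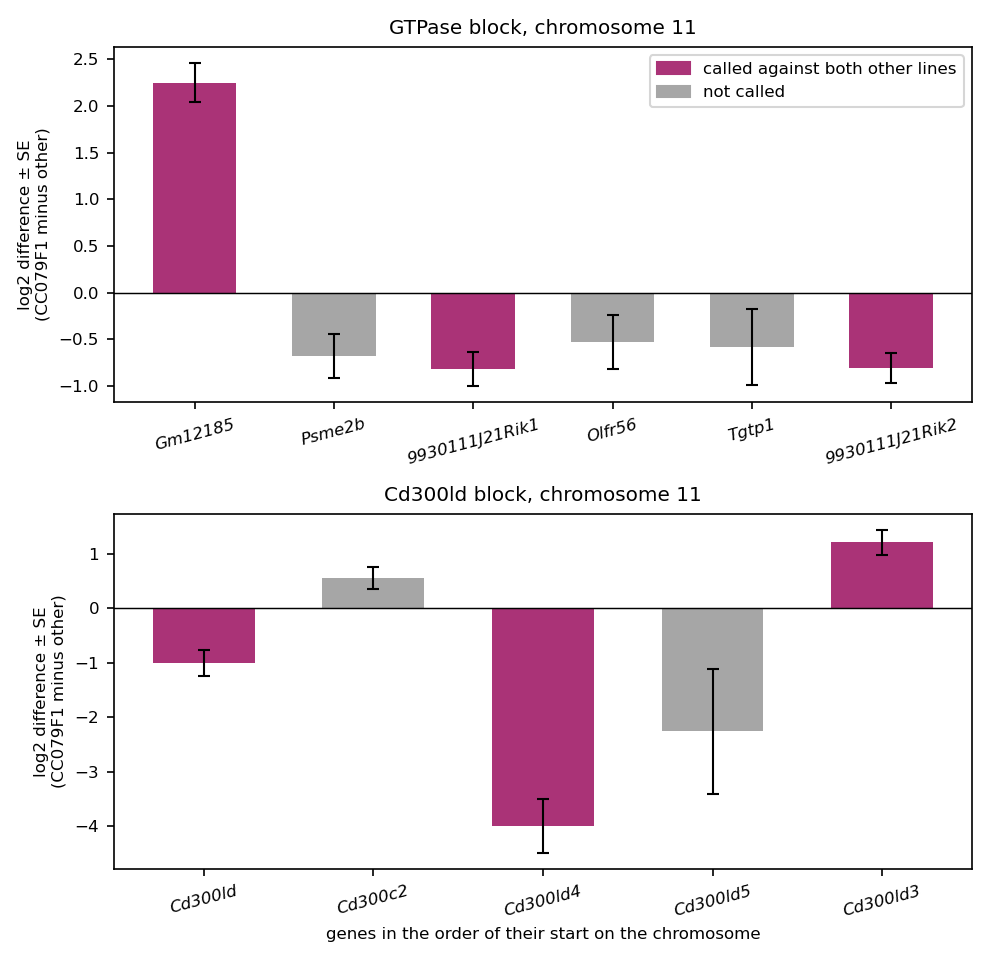
Log2 difference, CC079F1 minus the other non-responder lines, ± SE (y axis) for the tested genes of the 2 blocks on chromosome 11, in the order of their starts (x axis), with CC079F1 genes in purple and genes that did not pass in grey. Gm12185 and Cd300ld3 rose by 2.25 and 1.21 beside neighbors that fell.

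Immune makeup was read from 38 lists of marker and pathway genes. Of the 332 list genes with an adjusted p, 4 passed (1.2%, against 0.444% of all tested genes). Gzma was higher and Itgam, Clec7a and Ccl7 were lower. The number was 20 without CC080F1 aPD1 replicate 1, 14 without CC080F1 isotype replicate 2, 8 without CC036F1 aPD1 replicate 2, 2 without CC079F1 isotype replicate 1, and 10 with 3 line levels, so it depended on single tumors. Clec7a (Dectin-1), a receptor for fungal glucans on myeloid cells, was at 619 to 829.1 counts in CC079F1 and 1065 to 3187 in the other 7 tumors (log2 difference -1.23 ± 0.33, SE, adjusted p 0.0429 in DESeq2 and 0.204 in edgeR). Ccl7, a monocyte chemokine, was at 637 to 799 against 827 to 2351 (-0.77 ± 0.21, adjusted p 0.0483 in DESeq2 and 0.483 in edgeR). Both calls were near the limit and were lost without any 1 of the CC079F1 tumors, at adjusted p of 0.0661 to 0.347 for Clec7a and 0.147 to 0.337 for Ccl7. Clec7a also lost its call without 2 of the other tumors (CC036F1 aPD1 replicate 1 and CC080F1 isotype replicate 1), and Ccl7 without 4 (CC036F1 isotype replicates 1 and 2 and aPD1 replicate 1, and CC080F1 isotype replicate 2). In the fit with 3 line levels neither passed against CC080F1, while with the CC036F1 tumors left out Clec7a passed and Ccl7 did not (adjusted p 0.323).

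No gene of the T cell list passed, and the list as a whole was not tested. Of 13 members 12 had a lower point estimate, with a median log2 difference of -0.71 beside -0.01 over all tested genes, and 0 were called. The median was -0.27 against CC036F1 and -1.08 against CC080F1. Summed counts were 916 to 1715 in CC079F1, 905 to 1445 in CC036F1 and 1108 to 2785 in CC080F1. CC079F1 aPD1 replicate 1 and CC080F1 aPD1 replicate 1, the tumors with B cell and lymph node transcripts, had the highest sums of their lines. Cd3e had 14.6 and 3.51 counts with isotype and 89.4 and 37.6 with aPD1 in CC079F1, against 29.3 to 182 in the other tumors, which overlap (-1.50 ± 0.61, SE, adjusted p 0.482 in DESeq2). Cd8a was at 34.7 to 126 against 49.4 to 451 (-1.47, adjusted p 0.549 in DESeq2). In the cytotoxic list the other effector genes did not follow Gzma, with log2 differences of 0.18 for Gzmb and 0.43 for Prf1 (adjusted p 0.917 and 0.826 in DESeq2). The natural killer list had a median of 0.12, with 0 of 10 called.

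Few genes of the myeloid lists passed. The 14 macrophage genes had a median of -0.01, and among them only Itgam passed. The macrophage markers Adgre1 (3085 to 3726 counts in CC079F1) and C1qa (8841 to 9478) overlapped the other lines, at 2589 to 4221 and 5326 to 10290. The macrophage activation list had 12 of 14 lower point estimates and a median of -0.68, with 0 called. Arg1, which breaks down arginine, had the smallest adjusted p of that list, at 796 to 2810 counts against 1544 to 18603 (-2.02 ± 0.59, SE, adjusted p 0.0972 in DESeq2). The ratio of Cxcl9 to Spp1, which the study takes as a stand-in marker for the response to aPD1, was 0.265 ± 0.172 (SD, n = 4) in CC079F1 and 0.478 ± 0.33 (SD, n = 7) in the other tumors, and the values overlapped. The mean log2 ratio differed by -0.79 (two-sided exact permutation p 0.255).

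B cell genes moved with 2 tumors. CC079F1 aPD1 replicate 1 had 162 counts of Ms4a1 (CD20) and 255 of Glycam1, a gene of lymph node vessels, and CC080F1 aPD1 replicate 1 had 354 and 256. The other 9 tumors had 0 to 13.5 counts of Ms4a1 and 0 of Glycam1. Without both tumors 9 list genes passed in place of 4, and 105 genes in all. Their part in the other list results was not tested beyond this.

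The lists did differ between CC079F1 and each other line taken alone. Against CC036F1, 31 of 348 list genes were higher and 34 lower, where 3.29% of all genes were higher and 3.46% lower. Of 13 genes of hypoxia and glycolysis 11 were lower in CC079F1, among them Vegfa, with 10313 to 11290 counts against 14980 to 18733 (log2 difference -0.69, adjusted p 2.29e-07 in DESeq2), and the glucose transporter Slc2a1 (5563 to 7358 against 10260 to 14161, -1.0, adjusted p 3.19e-11). Of 10 endothelial genes 8 were higher, such as Pecam1 (1119 to 1395 counts against 632 to 869, 0.80, adjusted p 1.18e-11 in DESeq2), and of 12 fibroblast genes 8 were higher, such as Postn. Adipocyte genes moved with them, 4 of 5 higher (Adipoq, Cidec, Cfd and Fabp4), and the part of fat tissue in the stromal genes was not tested. The macrophage activation genes Nos2 and Arg1 were lower (-1.27 and -2.48, adjusted p 0.00162 and 0.000557 in DESeq2).

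Against CC080F1 none of the hypoxia, endothelial or fibroblast genes passed. Of 371 list genes 12 were lower in CC079F1 and 1, Gzma, was higher. Over all genes 0.558% were lower and 0.257% higher. The monocyte receptor Ccr2 was lower (1583 to 2037 counts in CC079F1, 3273 to 4249 in CC080F1, log2 difference -1.10, adjusted p 3.56e-10 in DESeq2). So was the complement factor Cfb (894 to 1356 against 3328 to 4084, -1.76, adjusted p 4.87e-09 in DESeq2). The non-classical MHC gene H2-T24 (189 to 297 against 561 to 614, -1.32, adjusted p 2.04e-15 in DESeq2), the interferon regulators Irf7 and Irf8 and the T cell genes Trac and Pdcd1 were lower too. Of these 12 genes only Itgam also passed against CC036F1, where Ccr2 was at 1166 to 1849 counts and H2-T24 at 195 to 241. These 2 comparisons share the CC079F1 tumors, so their values are given side by side.

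**Figure D4:**
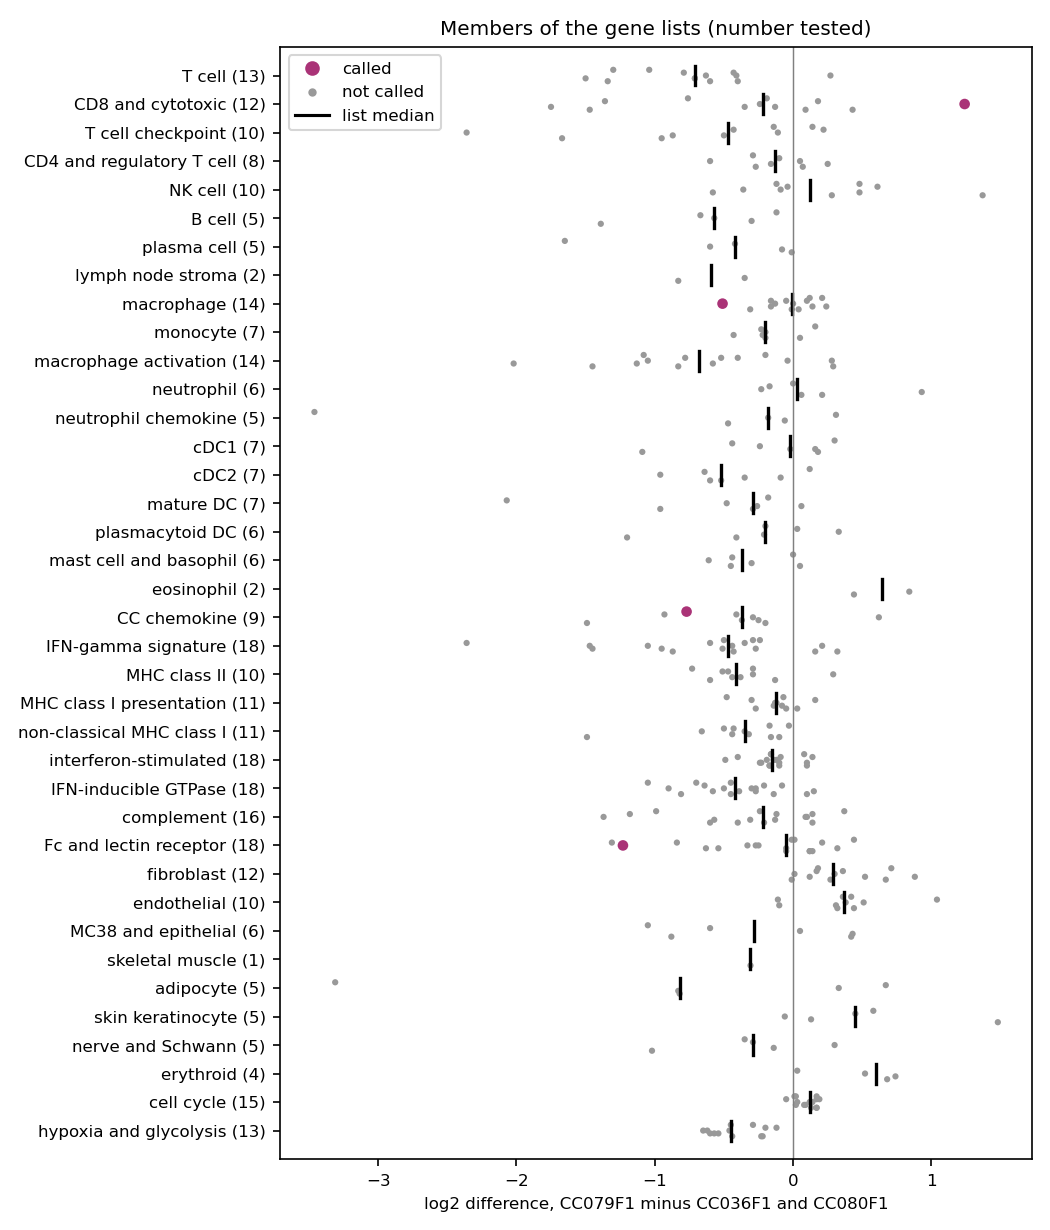
Log2 difference, CC079F1 minus CC036F1 and CC080F1 (x axis), for each tested member of the 38 gene lists (y axis, number tested in brackets), with called genes in purple, the rest in grey and the list median as a black bar. Of all the points 4 genes are called, and list medians run from -0.82 (adipocyte) to 0.64 (eosinophil).

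The antibody was described within CC079F1 from 2 aPD1 and 2 isotype tumors, without a test. Of 11751 genes with a mean of at least 100 normalized counts, 6079 (51.7%) did not overlap between antibodies (26.4% higher and 25.3% lower with aPD1), and 83 (0.706%) did not overlap and differed by 2-fold or more, 56 (0.477%) higher and 27 (0.23%) lower with aPD1. A lack of overlap was thus common among all genes and does not by itself set a gene apart.

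The largest rise was that of Gm49388, from 14.6 and 0 counts with isotype to 124 and 382 with aPD1, a difference of 5.79 on the log2(normalized count + 1) scale. Gm49388 rose in CC036F1 (9.59 and 6.27 to 119 and 19.3) but fell in CC080F1 (48.8 and 282 to 2.48). Cfd, the adipocyte protease adipsin, had 10.1 and 35.1 counts with isotype and 633 and 150 with aPD1 (3.96). Car3, a carbonic anhydrase abundant in fat and muscle, went from 41.1 and 21 to 558 and 227 (3.55), and Hp, haptoglobin, from 67.6 and 26.3 to 603 and 245 (3.16). The summed adipocyte list moved with them, at 332 and 457 counts with isotype and 2183 and 862 with aPD1, and its part in these values was not tested. In CC036F1 the list summed to 92.5 to 148 and in CC080F1 to 1409 at most. The pseudogene Pgam1-ps2, Sned1, Adm2, which encodes a peptide hormone, and the phosphatase gene Phospho1 made up the rest of the 8 largest rises (1.68 to 2.94). In CC080F1 Cfd, Car3 and Hp were higher with aPD1, Adm2 (-0.68) and Phospho1 (-1.11) were lower, and Pgam1-ps2 and Sned1 overlapped.

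The 8 largest falls ran from -1.53 to -4.20. Gpr34, a receptor of myeloid cells for lysophosphatidylserine, had 647 and 876 counts with isotype and 346 and 196 with aPD1 (-1.53). Apol8 went from 316 and 387 to 119 and 109 (-1.61), and the carboxypeptidase Cpa4 from 321 and 424 to 98.4 and 127 (-1.72). The others were Gm12751, Gm7666, Zfp708, Gm10163 and Gm28048. In CC036F1, 5 of these 8 genes overlapped between antibodies and Gm12751, Gm10163 and Gm28048 were higher with aPD1. In CC080F1, with a single aPD1 tumor, Gm28048 (-1.52), Gm7666 (-1.21) and Zfp708 (-0.76) were lower with aPD1. Cpa4 was higher there (0.5), and the others overlapped.

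Of the genes of interferon response, Cxcl9, the chemokine that draws CXCR3-bearing T cells, had 873 and 1698 counts with isotype. With aPD1 it had 1958 and 3745 (1.15), without overlap. The ratio of Cxcl9 to Spp1 did overlap, at 0.0881 and 0.250 with isotype and 0.221 and 0.499 with aPD1. The study found this ratio unchanged by aPD1 in its non-responder lines. In the list of interferon-gamma signature genes, 6 of 10 with enough counts were higher with aPD1 without overlap and 0 lower, with a median of 0.36. In the interferon-stimulated list 0 of 18 were higher and 3 lower without overlap (median -0.05), and in the MHC class I presentation list 2 of 11 were higher and 1 lower (median 0.08). In the MHC class II list, 7 of 8 were higher without overlap (median 0.91). Over all genes 26.4% were higher and 25.3% lower without overlap. Summed class II counts rose in CC036F1 too, from 23762 and 13993 with isotype to 30225 and 24359 with aPD1. In CC080F1 they were 47825 and 21604 with isotype and 23786 with aPD1. CC079F1 aPD1 replicate 1 held B cell and lymph node transcripts, and their part in these values was not tested. In the macrophage list 3 of 14 were higher and 1 lower (median 0.03). Gzma, at 273 and 207 counts with isotype and 242 and 210 with aPD1, overlapped.

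**Figure D5:**
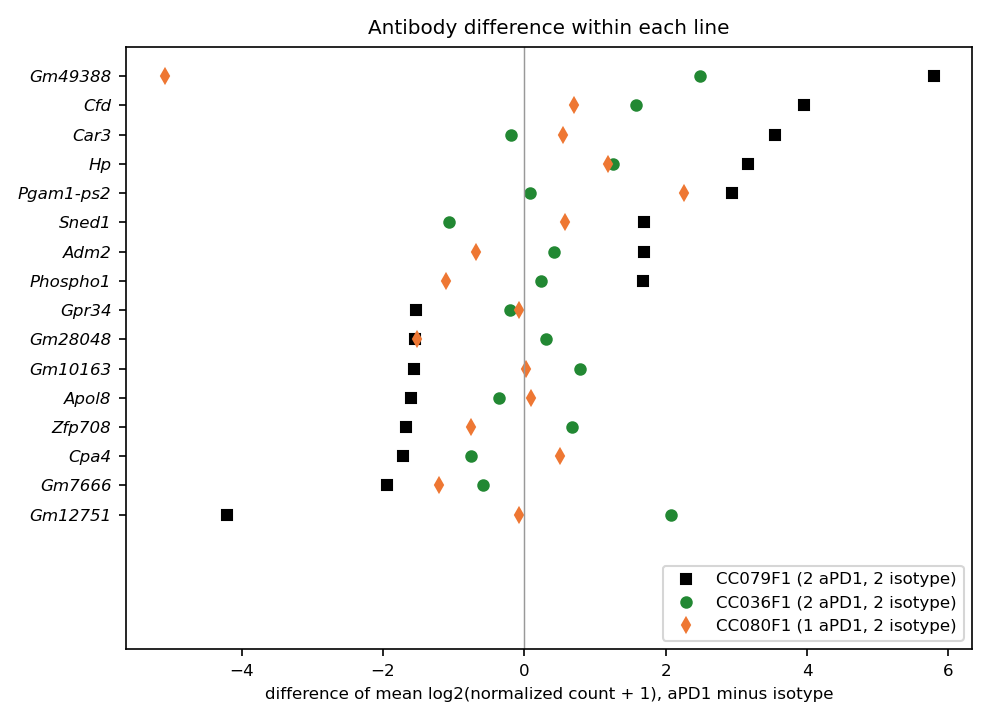
Difference of mean log2(normalized count + 1), aPD1 minus isotype (x axis), for the 16 genes (y axis) with the largest differences and no overlap in CC079F1, in CC079F1 (squares, 2 against 2), CC036F1 (circles, 2 against 2) and CC080F1 (diamonds, 1 against 2). Squares reach from -4.20 to 5.79, and for Cfd and Hp the symbols of all 3 lines lie above 0.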

How the data were processed

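Bulk tumor RNA was sequenced as poly(A) libraries (KAPA mRNA HyperPrep) from tumors that had been frozen in medium with DMSO. The authors aligned reads with Bowtie 1.2.3 to founder transcripts of the Collaborative Cross and deposited expected counts per gene, estimated by gbrs (GENCODE release 23, GRCm38). Estimated counts divide reads between near-identical transcripts, so genes with close copies depend on few reads that tell them apart. The expected counts were rounded to whole numbers, and 16.95% of values had not been whole. Names and coordinates came from GENCODE release 21, which matched 26681 of 26869 identifiers. Tumors were grouped by the labels' host and treatment, and the labels call them biological replicates. The responder class came from the study's text.

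Genes with at least 5 counts summed over the 11 tumors (24552) were fitted in DESeq2 1.42.0 (Wald test, antibody and host group as terms), with Benjamini-Hochberg adjustment and a threshold of 0.05. A fit with 3 line levels gave CC079F1 against each other line. Values are counts divided by DESeq2 size factors. edgeR 4.0.16 in R 4.3.3 was the alternative tool. Scripts were tested on simulated data. The named genes were those called against both lines with a mean of at least 100 counts and no overlap (up to 12 per direction), on or off genes, members of blocks and of lists, and for the antibody the 8 largest differences each way. Sdc3 and Itgam were beyond the first 12 lower genes, and Sdc3 was added after its values were seen. The members and lists were chosen with earlier results of these data known. Log2 differences within CC079F1 between antibodies used a pseudocount of 1 and no test. Near copies were found with BLAST+ 2.17.0. Intervals and floors cover counting error only.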

Additional observations from a re-analysis of the deposited data

Results flagged for a closer look

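In 120 groups of 4 to 10 tumors that were looked at, 7 held a tumor far from the others by Dixon's ratio, where chance flags about 1 in 20 groups. Most were low counts. Npnt was at 1.61 normalized counts in CC036F1 aPD1 replicate 2, below the other comparison tumors. AK157302 was at 1.61 in the same tumor and at 0 in the rest, both among the 7 comparison tumors and within CC036F1. Rps15-ps2 was at 1.10 in CC036F1 aPD1 replicate 1 and at 0 in the other CC036F1 tumors. Within CC079F1, Ugt1a6b was at 10.1 in isotype replicate 1 and Gm27232 at 0.751 in aPD1 replicate 1, with 0 in the other tumors of the line. Gm7336 was at 10896 in CC036F1 isotype replicate 2, lower than the other CC036F1 tumors.

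For 4 genes every aPD1 tumor moved away from isotype in opposite directions in CC079F1 and CC036F1. The values in CC079F1, on the log2(normalized count + 1) scale, were 1.70 for Sned1 (-1.07 in CC036F1), -4.20 for Gm12751 (2.08), -1.56 for Gm10163 (0.79) and -1.55 for Gm28048 (0.30). The difference between the lines was not tested. Gm6969, at 0 in CC036F1 and CC080F1, reached 118 normalized counts in the lines outside the comparison.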

How the results depend on the processing

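The number of genes called (81) was 13 in edgeR, 199 with 3 line levels, 239 without line CC036F1, 1224 without CC080F1, 43 in isotype tumors only, 53 with a depth class as a term, and 49 to 237 with 1 tumor left out. Genes called against each line (39) numbered 12 in edgeR and 15 in isotype tumors only. They numbered 239 without CC036F1 and 1224 without CC080F1, where 1 line is left to pass. With 1 tumor left out they numbered 28 to 46, and 23 to 39 of the 39 were kept. On or off genes (2) numbered 5 without either line and 2 to 4 with 1 tumor left out. Blocks (2) numbered 0 in edgeR and in isotype tumors only, 9 without CC036F1, 96 without CC080F1, and 0 to 2 with 1 tumor left out. List genes called (4) numbered 1 in edgeR, 10 with 3 line levels, 22 without CC036F1, 87 without CC080F1, 2 with depth class, and 2 to 20 with 1 tumor left out, the extremes being without CC079F1 isotype replicate 1 and without CC080F1 aPD1 replicate 1. The cause of these shifts was not tested. Leaving out both tumors with B cell counts, chosen after seeing the data, gave 105 genes, 1 block and 9 list genes. The log2 difference of the Cxcl9 to Spp1 ratio ran from -1.17 to -0.34 with 1 tumor left out, and the number of genes without overlap for the antibody change within CC079F1 (6079) from 8571 to 9277.

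With a replicate block 123 genes were called. Same-numbered tumors of different groups correlated at -0.18 to 0.193 in their deviations, so the numbers were not taken to pair the tumors. Of 901 values for 41 single genes, 803 kept their call and 98 kept only their direction. Depth, at 15276128 counts in the shallowest library, limits genes of few counts.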
